A study of Mus musculus with 6 samples.

Results

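A set of 10 genes of MHC class I antigen presentation was followed in the RNA-seq counts of mouse aortic smooth muscle cells (MASMCs): the heavy chains *H2-K1* and *H2-D1*, the light chain *B2m*, the peptide transporter subunits *Tap1* and *Tap2*, the loading factor *Tapbp*, the transactivator *Nlrc5* and the immunoproteasome subunits *Psmb8*, *Psmb9* and *Psmb10*. The members are the rows of the count table that carry these symbols, and 9 of the 10 symbols matched a row among 41721. No row was named *H2-D1*. An unnamed row on chromosome 17 whose description is the H-2 class I D-B alpha chain, the product of *H2-D1* in this strain, is therefore given beside the members as the D-B row, and is not counted among them. All 9 members passed edgeR's filter on low counts, as did 14085 genes in total.

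The libraries came from 3 cultures of Pdk4fl/fl and 3 cultures of Pdk4SMKO MASMCs, cells grown from the abdominal aortas of mice aged 10 weeks. All 6 cultures were treated with Ang II, which the methods give as 1 μM for 48 h, and none of them is an untreated control. Pdk4fl/fl mice carry loxP sites around exons of *Pdk4*, and Pdk4SMKO mice carry in addition a tamoxifen-inducible Cre under the *Myh11* promoter. This promoter is active in smooth muscle, so that other cells in a culture would keep *Pdk4*, and the methods give tamoxifen to mice of both genotypes. The study calls the 3 cultures of a genotype biological replicates, without saying whether each came from a separate mouse, and the p-values measure the spread between them.

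Class I molecules display peptides from inside the cell to CD8+ T cells. The proteasome cuts proteins into peptides, and the immunoproteasome, in which PSMB8, PSMB9 and PSMB10 replace the constitutive catalytic subunits, is known for peptides with ends that suit class I molecules. The TAP1 and TAP2 heterodimer carries the peptides into the endoplasmic reticulum (ER), tapasin (*Tapbp*) holds the empty molecule at the transporter, and the loaded heavy chain leaves for the surface bound to β2-microglobulin (*B2m*). NLRC5 is the transactivator of class I genes, acting with RFX, CREB and NF-Y factors at their promoters, and interferons are known to induce most of the pathway, in part through IRF1.

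Between 16526044 and 22481670 counts were assigned per library, and 3 counts, the limit for a gene at 0, came to 0.132 to 0.227 CPM. CPM here are counts relative to the TMM-scaled library total. *Pdk4*, the targeted gene, had 570, 639 and 421 counts in Pdk4fl/fl and 110, 182 and 141 counts in Pdk4SMKO libraries, so that 19.8% of the Pdk4fl/fl level remained in CPM. The genotypes differed well beyond *Pdk4*, since 32.8% of tested genes were called higher and 26.5% lower in Pdk4SMKO cells. *Xist*, the RNA of the inactive X chromosome of female cells, had 3, 4 and 5 counts in Pdk4fl/fl and 610, 347 and 321 counts in Pdk4SMKO libraries, while the methods describe the Cre transgene as Y-linked. All 7 tested mesothelial markers and 5 of 8 fibroblast markers were called higher in Pdk4SMKO cells. Of these, *Upk1b*, *Upk3b*, *Lrrn4*, *Wt1*, *Krt18*, *Thy1*, *Mfap5* and *Lum* passed the filter on low counts through the Pdk4SMKO libraries alone. They could therefore not have been called lower, whereas *Msln*, *Krt19*, *Dcn* and *Col1a1* passed in both genotypes. The summed level of the listed markers was 74.2 to 99.99 CPM in Pdk4fl/fl and 723 to 1325 CPM in Pdk4SMKO libraries for mesothelium, and 626 to 855 CPM and 5206 to 7129 CPM for fibroblasts. Of 8 endothelial markers, 3 were tested, with 2 called lower and 0 higher, or 1 and 0 with library size alone. The summed level of the 8 was 16.0 to 24.9 CPM in Pdk4fl/fl and 3.33 to 6.72 CPM in Pdk4SMKO libraries. Of 8 smooth muscle markers, 4 were called higher and 3 lower, or 4 and 2 with library size alone. Among the higher ones, *Des* and *Myh11* also passed the filter through the Pdk4SMKO libraries alone. The actin-binding genes *Tagln* and *Smtn* were lower at −2.26 and −2.28 on the log2 scale, as was *Cnn1* at −1.50, a call lost with library size alone (−0.88). *Acta2*, a smooth muscle actin, was at 233 ± 40.8 (SD, n = 3) and 701 ± 74.5 (SD, n = 3) CPM, whereas *Myh11*, the myosin that defines mature smooth muscle, had only 8 to 10 counts in Pdk4fl/fl and 44 to 62 counts in Pdk4SMKO libraries. The part of these differences in the class I results was not tested, and in bulk RNA fewer cells of a type and less RNA per cell cannot be told apart.

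Promoter stretches of a heavy chain, the light chain, an immunoproteasome subunit and the neighbouring *Tap1* and *Psmb9* are shown because class I genes are known for a shared promoter module. They were picked after the values were seen. The sequences are the 250 bases before the start of each gene in RefSeq (GRCm38.p6), where 8 of the 10 symbols matched an entry. Capitals mark each match, on either strand, to 5 motifs: the core of the interferon-stimulated response element (ISRE, GAAANNGAA), the gamma-activated site (GAS, TTCNNNGAA), the Y box (CCAAT, which reads ATTGG on the other strand), the core of the cyclic AMP response element (CRE, TGACG) and the NF-κB consensus. The stretches are *H2-K1* at chr17:34000348-34000597 (minus strand), *B2m* at chr2:122147437-122147686 (plus strand), *Psmb8* at chr17:34197945-34198194 (plus strand) and the 225 bases between the divergent starts of *Psmb9* and *Tap1* at chr17:34187331-34187555 (plus strand, the direction of *Tap1*).
H2-K1: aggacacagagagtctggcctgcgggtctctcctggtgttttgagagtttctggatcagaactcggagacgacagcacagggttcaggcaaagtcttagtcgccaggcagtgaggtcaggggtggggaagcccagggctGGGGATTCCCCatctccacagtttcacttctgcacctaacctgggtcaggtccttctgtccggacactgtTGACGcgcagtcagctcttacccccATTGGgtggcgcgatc
B2m: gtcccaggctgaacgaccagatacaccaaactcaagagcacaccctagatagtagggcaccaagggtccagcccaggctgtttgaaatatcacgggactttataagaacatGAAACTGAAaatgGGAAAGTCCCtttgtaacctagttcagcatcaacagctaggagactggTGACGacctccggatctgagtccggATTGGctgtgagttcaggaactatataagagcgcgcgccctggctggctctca
Psmb8: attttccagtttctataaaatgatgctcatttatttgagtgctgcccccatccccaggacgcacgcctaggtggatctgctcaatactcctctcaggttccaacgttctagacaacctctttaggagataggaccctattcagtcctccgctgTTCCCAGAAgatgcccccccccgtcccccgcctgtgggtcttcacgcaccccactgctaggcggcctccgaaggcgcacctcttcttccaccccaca
Tap1-Psmb9 interval: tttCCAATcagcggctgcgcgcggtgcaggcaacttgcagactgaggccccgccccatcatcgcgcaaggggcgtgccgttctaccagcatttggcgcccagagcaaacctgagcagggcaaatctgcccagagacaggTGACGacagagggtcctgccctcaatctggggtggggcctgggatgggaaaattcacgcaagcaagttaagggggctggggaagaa

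The *H2-K1* and *B2m* stretches each held a CRE core, a Y box and an NF-κB match, in the same order relative to the start, with the CRE core 41 to 37 bases before the start of *H2-K1* and 78 to 74 bases before that of *B2m*. *H2-K1* had 2 RefSeq entries, of which the first was used, and its distances hold for that start. The ISRE core was sought only with GAAA ahead of GAA. The *H2-K1* and *H2-D1* stretches both hold tttcacttc, which on the other strand has GAA ahead of GAAA and could not match. The lack of a match there therefore does not show that an ISRE is absent. In the searched form, *B2m* alone of the 8 held the ISRE core, which 7.13% of all 32851 promoter stretches of this length contain. An NF-κB match stood in 7.25% of them, a CRE core in 17.8%, a Y box in 33.8% and a GAS in 7.02%. The *H2-K1* stretch held 2 overlapping NF-κB matches, as did that of *H2-D1*. In the interval between *Tap1* and *Psmb9*, 1 Y box and 1 CRE core lay between 2 genes whose starts are 226 bases apart. *Psmb8* held a GAS and none of the others, *Tapbp* held 2 Y boxes, and *Psmb10* held none of the 5. Such matches describe the letters alone.

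Of the 9 members, 5 were called lower in Pdk4SMKO than in Pdk4fl/fl cells, 2 were called higher and 2 were not called, where a call needed a change of 2-fold or more together with an adjusted p below 0.05 in edgeR's quasi-likelihood test. *H2-K1*, *B2m*, *Psmb8*, *Psmb10* and *Nlrc5* were lower, *Tap1* and *Tap2* were higher, and *Tapbp* and *Psmb9* did not pass. In all tested genes, 26.5% were called lower and 32.8% higher. The median log2 fold change of the members was −1.46, beside 0.12 over all tested genes. For 6 members every Pdk4SMKO library lay below every Pdk4fl/fl library, which held for 38.3% of tested genes, and for 2 members every Pdk4SMKO library lay above, which held for 43.5%. The sign of each of the 9 log2 fold changes was the same under the 4 scalings tried.

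**Figure D1:**
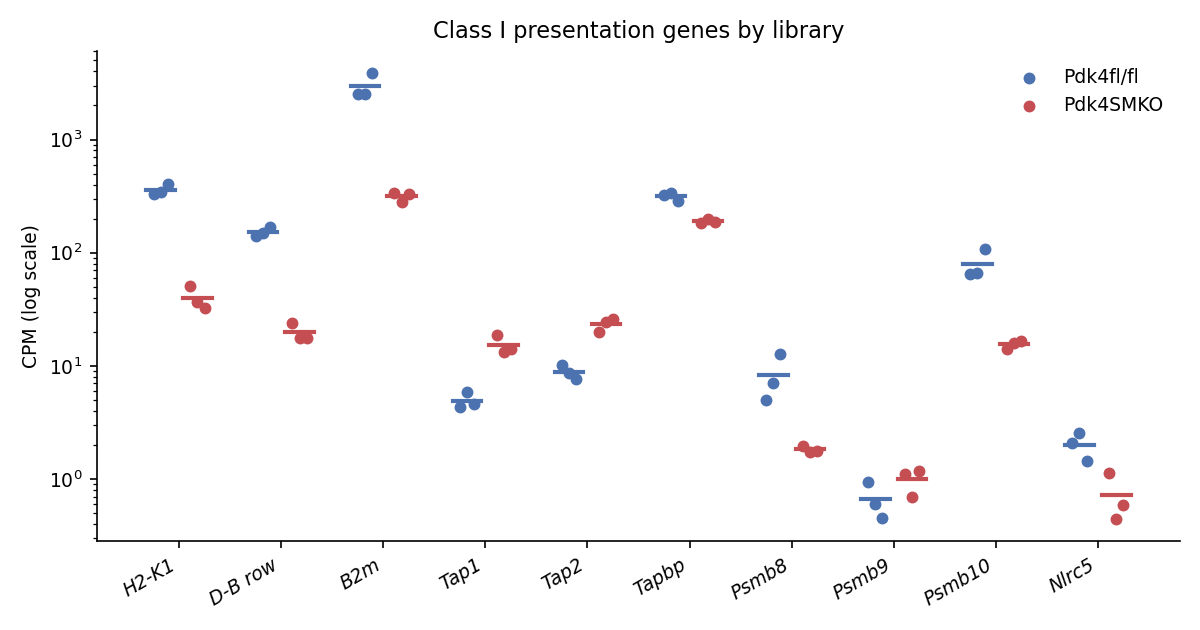
Level of each class I presentation gene in each library, in CPM on a log scale, with Pdk4fl/fl libraries in blue, Pdk4SMKO libraries in red and the mean of each group of 3 as a bar. *H2-K1*, the D-B row and *B2m* sit 7.72-fold to 9.37-fold lower in Pdk4SMKO libraries, *Tap1* and *Tap2* sit higher, and only the *Psmb9* libraries overlap.

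The heavy and light chains fell together. *H2-K1* (MGP_C57BL6NJ_G0023956, chromosome 17 from 35236550 to 35247973 in the coordinates of the table), which encodes the K heavy chain that holds the peptide, had 4985, 6276 and 5318 counts in Pdk4fl/fl and 1160, 732 and 662 counts in Pdk4SMKO libraries. The groups did not overlap, and Pdk4SMKO replicate 1 was the highest of its group. In CPM the level was 360 ± 37.4 (SD, n = 3) against 39.9 ± 9.72 (SD, n = 3), which is 9.01-fold lower in Pdk4SMKO cells. The fitted log2 fold change was −3.17 ± 0.18 (SE), with an adjusted p of 1.7e-07.

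*B2m* (MGP_C57BL6NJ_G0026827, chromosome 2 from 129195593 to 129200990), the light chain without which a heavy chain does not reach the surface, had 37813, 45752 and 51113 counts in Pdk4fl/fl and 7630, 5679 and 6781 counts in Pdk4SMKO libraries. Pdk4fl/fl replicate 3 was above the other two, and no Pdk4SMKO library came near the Pdk4fl/fl range. The level was 2967 ± 780 (SD, n = 3) CPM in Pdk4fl/fl and 317 ± 29.6 (SD, n = 3) CPM in Pdk4SMKO cells, 9.37-fold lower. Its log2 fold change of −3.23 ± 0.20 (SE) had an adjusted p of 2.5e-07. The gene *Patl2* overlaps the whole of *B2m* on the other strand and had 0 to 13 counts. *B2m* and *H2-K1* lie on different chromosomes, and the ratio of *H2-K1* to *B2m* counts was 0.132, 0.137 and 0.104 in Pdk4fl/fl and 0.152, 0.129 and 0.0976 in Pdk4SMKO libraries. These ratios overlapped between genotypes, and their mean log2 difference was 0.01 (exact two-sided permutation test over 3 against 3 libraries, p = 1, adjusted p = 1 over 8 gene pairs). Leaving out each library in turn moved that difference between −0.14 and 0.18.

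The D-B row (chromosome 17 from 36777799 to 36779307), chosen by its description after no row named *H2-D1* was found, had 2104, 2705 and 2226 counts in Pdk4fl/fl and 548, 353 and 359 counts in Pdk4SMKO libraries. Here too all Pdk4SMKO libraries lay below, with Pdk4SMKO replicate 1 the highest of them. It went from 152 ± 14.5 (SD, n = 3) to 19.7 ± 3.74 (SD, n = 3) CPM, a 7.72-fold lower level with a log2 fold change of −2.95 ± 0.16 (SE) and an adjusted p of 1.2e-07. Class I heavy chain genes are near-identical paralogs, and the counting may have split their reads, so the rows are also given summed. *H2-K1* and the D-B row together gave a log2 fold change of −3.10 ± 0.18 (SE, adjusted p = 1.5e-07). The ratio of the D-B row to *B2m* differed by 0.24 on the log2 scale (exact permutation p = 0.3 over 3 against 3 libraries, adjusted p = 0.4).

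A wider view of the heavy chains took every row of chromosome 17 described as a class I alpha chain, pseudogenes and unnamed rows included. Of these 51 rows, 24 had a count and 12 were tested, with 6 lower, 2 higher and 4 not called. Among all tested genes, 26.5% were called lower and 32.8% higher. A description need not name the gene, since *H2-M3* is described as an L-D alpha chain, and this limit holds for the D-B row too. Summed over all 51, the log2 fold change was −2.94 ± 0.18 (SE), with an adjusted p of 2.3e-07. Among them, named here after its values were seen, was an unprocessed pseudogene (MGP_C57BL6NJ_G0040718, from 35213116 to 35219768, described as a D-K alpha chain) with 1446, 1905 and 1541 counts in Pdk4fl/fl and 12, 7 and 2 counts in Pdk4SMKO libraries. Its log2 fold change of −8.29 was larger in size than that of *H2-K1*. *Gm8909*, also picked for its values, went the other way, from 13, 15 and 14 counts to 183, 61 and 34 counts.

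The transporter genes rose, opposite in direction to the chains. *Tap1* (MGP_C57BL6NJ_G0023968, chromosome 17 from 35480414 to 35491366) had 65, 106 and 61 counts in Pdk4fl/fl and 427, 267 and 286 counts in Pdk4SMKO libraries. Every Pdk4SMKO library was above every Pdk4fl/fl library. The level went from 4.92 ± 0.79 (SD, n = 3) to 15.4 ± 2.96 (SD, n = 3) CPM, 3.12-fold higher, with a log2 fold change of 1.64 ± 0.21 (SE) and an adjusted p of 5.0e-05.

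*Tap2* (MGP_C57BL6NJ_G0023970, chromosome 17 from 35500069 to 35514288), whose product is the partner of TAP1, had 153, 158 and 102 counts in Pdk4fl/fl and 450, 494 and 525 counts in Pdk4SMKO libraries. Again the groups stood apart, with the Pdk4SMKO libraries higher. In CPM this was 8.86 ± 1.25 (SD, n = 3) against 23.4 ± 3.18 (SD, n = 3), 2.64-fold higher, and the log2 fold change was 1.40 ± 0.18 (SE) with an adjusted p of 4.2e-05. The ratio of *Tap1* to *Tap2* counts ranged from 0.425 to 0.671 in Pdk4fl/fl and from 0.540 to 0.949 in Pdk4SMKO libraries, so the proportion between them overlapped between genotypes (mean log2 difference 0.23, exact permutation p = 0.6, adjusted p = 0.686, 3 against 3 libraries). Without Pdk4SMKO replicate 1 the difference was −0.03.

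*Tapbp* (MGP_C57BL6NJ_G0023949, chromosome 17 from 35122040 to 35131950), the tapasin gene, had 4880, 6144 and 3747 counts in Pdk4fl/fl and 4174, 3955 and 3827 counts in Pdk4SMKO libraries. After scaling, the Pdk4fl/fl libraries, at 315 ± 28.2 (SD, n = 3) CPM, were all above the Pdk4SMKO libraries, at 189 ± 6.91 (SD, n = 3) CPM. The log2 fold change of −0.74 ± 0.12 (SE) had an adjusted p of 0.000192 but missed the 2-fold limit. With library size alone as the scaling it was −0.13, with an adjusted p of 0.331. *Calr*, which encodes the chaperone calreticulin of the same loading complex, was called lower at −1.19 ± 0.15 (SE, adjusted p = 3.8e-05), a call lost with library size alone (−0.58). The ratio of *Tapbp* to *Calr* was 0.122 to 0.143 in Pdk4fl/fl and 0.148 to 0.214 in Pdk4SMKO libraries, without overlap (exact permutation p = 0.1, the smallest that 3 against 3 libraries allow, adjusted p = 0.2).

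**Figure D2:**
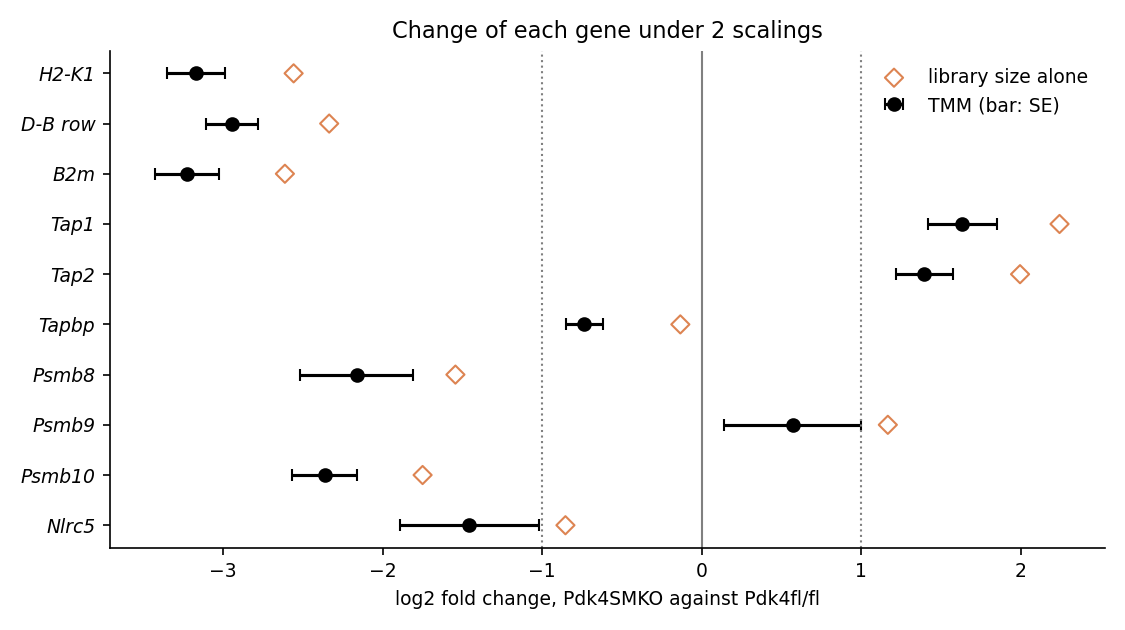
Log2 fold change of each gene in Pdk4SMKO against Pdk4fl/fl cells, as black points with their SE under TMM scaling and as open diamonds with library size alone, with dotted lines at a fold change of 2. The diamonds lie to the right of the points throughout, which puts *Nlrc5* between the dotted lines and *Psmb9* past the right one.

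Among the other 10 genes of peptide trimming and loading in the ER, all tested, 2 (20%) were called higher, 2 (20%) lower and 6 not called. Of all tested genes, 32.8% were called higher and 26.5% lower. *Uggt1*, which re-glucosylates misfolded glycoproteins, was higher (log2 fold change 2.10 ± 0.12, SE), as was *Ganab*, a glucosidase subunit (1.78 ± 0.14, SE). *Hspa5*, the ER chaperone BiP, was lower at −1.84 ± 0.15 (SE) beside *Calr*. *Erap1*, the aminopeptidase that trims peptides in the ER, and *Tapbpl*, the tapasin-related editor, are both outside the naming rule and had log2 fold changes of −0.77 and −0.23. No gene was called among 5 tested cytosolic peptidases, whose log2 fold changes lay between −0.90 and −0.05.

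The immunoproteasome subunits did not move as a unit. *Psmb8* (MGP_C57BL6NJ_G0023969, chromosome 17 from 35491856 to 35498447), the chymotrypsin-like subunit, had 75, 128 and 168 counts in Pdk4fl/fl and 45, 35 and 36 counts in Pdk4SMKO libraries. Its Pdk4fl/fl libraries were spread widely, yet all lay above the narrow Pdk4SMKO range. The level went from 8.25 ± 4.00 (SD, n = 3) to 1.83 ± 0.129 (SD, n = 3) CPM, 4.51-fold lower (log2 fold change −2.16 ± 0.35, SE, adjusted p = 0.00025).

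*Psmb10* (MGP_C57BL6NJ_G0034562, chromosome 8 from 112232507 to 112235171), the trypsin-like subunit, had 979, 1216 and 1416 counts in Pdk4fl/fl and 318, 320 and 338 counts in Pdk4SMKO libraries. No library of either genotype reached the range of the other. The level was 79.7 ± 23.8 (SD, n = 3) against 15.5 ± 1.36 (SD, n = 3) CPM, 5.15-fold lower (log2 fold change −2.36 ± 0.20, SE, adjusted p = 2.5e-06). *Psmb9* (MGP_C57BL6NJ_G0023967, chromosome 17 from 35474849 to 35480625), whose product replaces PSMB6, had 14, 11 and 6 counts in Pdk4fl/fl and 25, 14 and 24 counts in Pdk4SMKO libraries. Its groups overlapped, at 0.664 ± 0.245 (SD, n = 3) and 0.991 ± 0.258 (SD, n = 3) CPM, and the log2 fold change of 0.57 ± 0.43 (SE) had an adjusted p of 0.243. At these counts a difference was not detectable under TMM, and with library size alone *Psmb9* was called higher (1.17, adjusted p = 0.0308).

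Each immunoproteasome subunit takes the place of a constitutive one. No row was named *Psmb5*, which PSMB8 replaces. *Psmb6*, replaced by PSMB9, was at 114 ± 24.8 (SD, n = 3) and 74.2 ± 5.39 (SD, n = 3) CPM and was not called (log2 fold change −0.62 ± 0.16, SE, adjusted p = 0.00452). *Psmb7*, replaced by PSMB10, was called lower at −1.42 ± 0.15 (SE, adjusted p = 9.1e-06), a call that was lost with library size alone (−0.81). Within each library, *Psmb10* counts were 0.438, 0.411 and 0.503 of *Psmb7* counts in Pdk4fl/fl and 0.213, 0.248 and 0.250 in Pdk4SMKO libraries. This ratio, which does not depend on the scaling, was thus 1.90-fold lower in Pdk4SMKO cells without overlap (exact permutation p = 0.1, the smallest possible with 3 against 3 libraries, adjusted p = 0.2). The ratio of *Psmb9* to *Psmb6* never exceeded 0.0167 and overlapped between genotypes (exact permutation p = 0.2, adjusted p = 0.32).

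The remaining proteasome genes leaned to lower values under TMM. Of the 11 other subunits of the 20S core, 5 (45.5%) were called lower and none higher, beside 26.5% and 32.8% of all tested genes. Their median log2 fold change was −0.95, with *Psmb2* lowest at −1.93 ± 0.18 (SE), followed by *Psma7* at −1.41 ± 0.17 (SE). Of 4 genes for the proteasome activator and for assembly, *Psme1* (−1.44 ± 0.16, SE), *Psme2* (−1.42 ± 0.28, SE) and *Pomp* were lower, where PSME1 and PSME2 form the interferon-inducible PA28 cap and POMP assembles the core. With library size alone, 1 of the 11 core subunits and none of the 4 others were called, while *Psmb8* and *Psmb10* were still called lower at −1.54 and −1.75.

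*Psmb9*, *Tap1*, *Psmb8* and *Tap2* follow one another on chromosome 17, and the ratios between neighbours show how unlike they were. The *Tap2* to *Psmb8* ratio was 2.04, 1.23 and 0.607 in Pdk4fl/fl and 10.0, 14.1 and 14.6 in Pdk4SMKO libraries. It was 10.9-fold higher in Pdk4SMKO cells, with the groups far apart (mean log2 difference 3.45, exact permutation p = 0.1, adjusted p = 0.2, 3 against 3 libraries). *Tap1* and *Psmb9*, which by their RefSeq starts are transcribed apart from the interval printed above, had a *Tap1* to *Psmb9* ratio of 4.64, 9.64 and 10.2 in Pdk4fl/fl and 17.1, 19.1 and 11.9 in Pdk4SMKO libraries. This ratio was also without overlap, 2.09-fold higher in Pdk4SMKO cells (exact permutation p = 0.1, adjusted p = 0.2). In the annotation that was counted, the gene models of *Tap1* and *Psmb9* overlap on opposite strands by 212 bases, unlike the RefSeq starts, which leave an interval. The sources used here do not give the use of strand in counting, so reads in that overlap cannot be assigned.

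**Figure D3:**
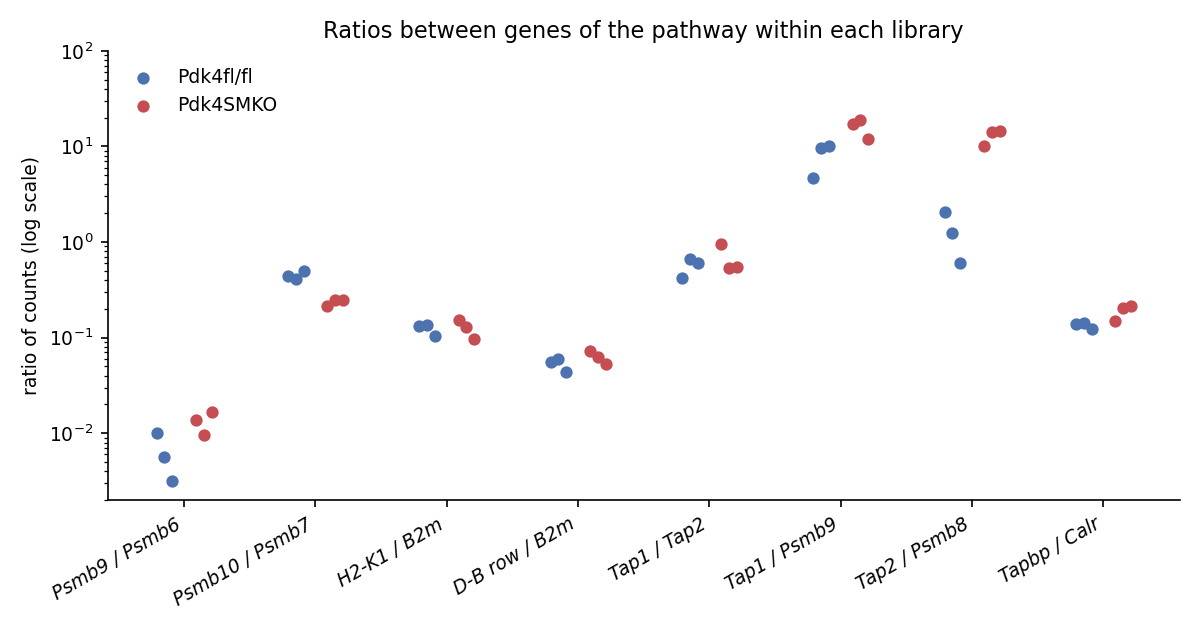
Ratio of the counts of 2 genes of the pathway within each library, on a log scale, with Pdk4fl/fl in blue and Pdk4SMKO in red. The ratio of *Tap2* to *Psmb8* rises from 0.607 to 2.04 up to 10.0 to 14.6, while the ratios of *H2-K1* and of the D-B row to *B2m* overlap between genotypes.

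The stretch of chromosome 17 from *Tapbp* to *Tap2* holds 35 rows, of which 20 were tested, with 5 higher, 6 lower and 9 not called. These counts are near the 32.8% higher and 26.5% lower of all tested genes and say nothing particular of the stretch. *Rps18*, a ribosomal protein gene picked here as an example after its values were seen, was lower at −2.35, and *Ring1*, a Polycomb gene picked likewise, was higher at 1.13. *H2-DMa*, a class II gene between *H2-K1* and *Psmb9*, had 18 to 36 counts in every library and was not called (log2 fold change −0.24, adjusted p = 0.571).

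**Figure D4:**
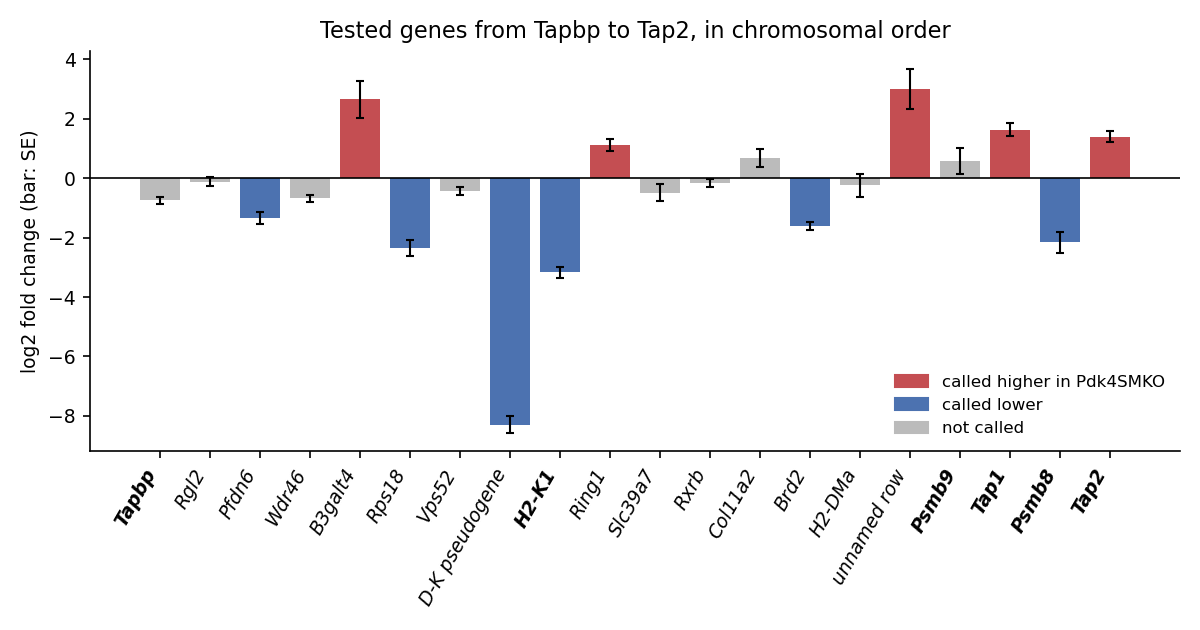
Log2 fold change (bars) with its SE (whiskers) of the 20 tested rows from *Tapbp* to *Tap2*, in their order on chromosome 17, with red for called higher, blue for called lower and grey for not called in Pdk4SMKO cells. *H2-K1* and the pseudogene beside it are the lowest, and *Psmb8* is lower between *Tap1* and *Tap2*, which are higher.

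*Nlrc5* (MGP_C57BL6NJ_G0034457, chromosome 8 from 99392722 to 99451285), the class I transactivator, was scarce in both genotypes, with 31, 46 and 19 counts in Pdk4fl/fl and 26, 9 and 12 counts in Pdk4SMKO libraries. In CPM the groups did not overlap, at 2.01 ± 0.546 (SD, n = 3) and 0.726 ± 0.367 (SD, n = 3), though raw counts did. The log2 fold change of −1.46 ± 0.44 (SE) had an adjusted p of 0.0108. That call was the weakest of the 7, since it was lost with library size alone (−0.85, adjusted p = 0.102) and without Pdk4fl/fl replicate 2 (−1.25, adjusted p = 0.0529). *Ciita*, the transactivator of class II genes, had 0, 1 and 0 counts against 0, 6 and 4 and was not tested.

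Of 13 regulators known to act at class I promoters, 7 (53.8%) were called lower and 1 (7.69%) higher, beside 26.5% and 32.8% of all tested genes. Their median log2 fold change was −1.08. *Irf1*, the interferon regulatory factor that binds the ISRE, had 3495, 3703 and 3325 counts in Pdk4fl/fl and 499, 569 and 536 counts in Pdk4SMKO libraries (log2 fold change −3.17 ± 0.15, SE, adjusted p = 4.7e-08). *Rela*, the NF-κB subunit p65, fell from 1376 ± 247 (SD, n = 3) to 130 ± 13.2 (SD, n = 3) CPM, a log2 fold change of −3.40 ± 0.17 (SE). *Nfyc*, a subunit of the Y box factor NF-Y, was lower by the same measure at −3.40 ± 0.14 (SE). The other 4 that were lower, *Irf2*, *Rfxank*, *Atf1* and *Nfya*, stand outside the naming rule, with log2 fold changes from −2.36 to −1.08, and *Nfya* lost its call with library size alone (−0.47). *Rfx5*, the DNA-binding subunit of the RFX complex, was not called (−0.46 ± 0.21, SE, adjusted p = 0.0647).

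*Ifng* and *Ifnb1*, the genes of interferon γ and β, had 0 counts in all 6 libraries, which allows up to 0.132 to 0.227 CPM, depending on the library. Of the 17 tested genes for interferon receptors and signalling, 5 (29.4%) were higher and 2 (11.8%) lower, beside 32.8% and 26.5% of all tested genes. *Socs3* and *Usp18*, feedback inhibitors of cytokine and interferon signalling, were higher at 1.90 ± 0.27 and 1.74 ± 0.60 (SE), while *Ptpn2*, a phosphatase of JAK kinases, and *Jak1*, a receptor kinase, were lower at −2.23 ± 0.14 and −1.10 ± 0.13 (SE). The call of *Jak1* was lost with library size alone (−0.50).

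Interferon-stimulated genes were called in both directions, at shares close to those of all tested genes. Of 28 tested, a list that includes *Tap1*, *Psmb8* and *Psmb9* themselves, 11 (39.3%) were higher and 8 (28.6%) lower, beside 32.8% and 26.5% of all tested genes, with a median log2 fold change of 0.25. *Cxcl10*, a chemokine for T cells, went from 2056, 2722 and 2159 counts to 9, 3 and 8 counts (−8.86 ± 0.24, SE), and *Mx2*, an antiviral GTPase, was lower at −3.61 ± 0.17 (SE). The immunity-related GTPases *Ifi47* and *Irgm2* were higher, at 5.01 ± 0.36 and 3.84 ± 0.24 (SE). *Ifi47* had 14, 15 and 4 counts in Pdk4fl/fl and 375, 613 and 447 counts in Pdk4SMKO libraries. With library size alone the split was 14 higher and 5 lower.

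Genes that present by related routes were also called in both directions. Of 7 tested class I-like genes, *Mr1*, which presents vitamin B metabolites, and *H2-T24*, a non-classical heavy chain, were higher (1.86 ± 0.16 and 1.78 ± 0.30, SE). *Fcgrt*, the heavy chain of the neonatal Fc receptor, which also pairs with β2-microglobulin, was lower at −1.58 ± 0.17 (SE), just under the 2-fold limit with library size alone (−0.98). *H2-M2* had 72, 70 and 50 counts in Pdk4fl/fl and 0 counts in all Pdk4SMKO libraries, at least 29.0-fold lower against a limit of 3 counts per library. In the class II pathway, *Cd74*, the invariant chain, went from 2027, 2543 and 2196 to 24, 15 and 18 counts (−7.34 ± 0.19, SE). The class II chain *H2-Ab1* and the lysosomal protease *Ctss* were called higher from 1 to 4 counts per Pdk4fl/fl library, reaching 17 to 30 and 43 to 174 counts. Beside these, 6 of 7 tested macrophage markers were higher in Pdk4SMKO cells, and the macrophage genes *C1qa*, *C1qb*, *C1qc*, *Adgre1* and *Tyrobp* were at 0 counts in every Pdk4fl/fl library. These genes, *Csf1r*, *H2-Ab1* and *Ctss* passed the filter on low counts through the Pdk4SMKO libraries alone, so they could not have been called lower. Among all tested genes, 32.8% were called higher and 26.5% lower. The summed level of the 10 macrophage markers was 21.6 to 38 CPM in Pdk4fl/fl and 12.3 to 40.1 CPM in Pdk4SMKO libraries, of which *Cd68*, the marker that was lower, made up most in Pdk4fl/fl. Of 10 dendritic cell and lymphocyte markers, 2 were tested. *Cd79a*, part of the B cell receptor, was called lower, from 65, 89 and 53 counts to 1 count per library, and *Zbtb46*, a dendritic cell factor, had 46 to 81 counts per library and was not called. The summed level of the 10 was 9.01 to 9.93 CPM in Pdk4fl/fl and 2.74 to 3.38 CPM in Pdk4SMKO libraries, with *Flt3*, *Cd3e* and *Nkg7* at 0 or 1 count.

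**Figure D5:**
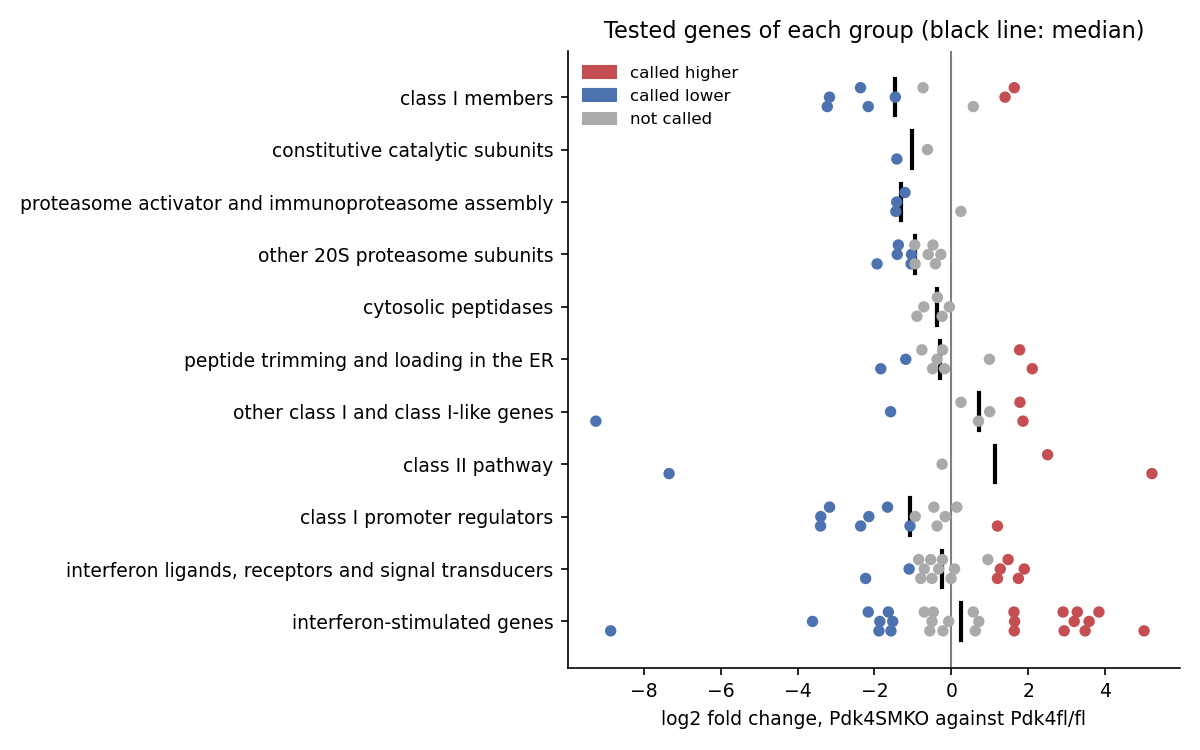
Log2 fold change of every tested gene of each group, with red for called higher, blue for called lower and grey for not called, and the group's median as a black line. The class I members run from −3.23 to 1.64, the 20S subunits stay at or below −0.27, and the interferon-stimulated genes run from −8.86 to 5.01.

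Levels between genes were compared per kilobase of gene model. Among the members in Pdk4fl/fl cells, *B2m* stood first, at 3450 ± 907 (SD, n = 3) CPM per kb, followed by *H2-K1* at 138 ± 14.4, *Tapbp* at 97.6 ± 8.74 and *Psmb10* at 62.8 ± 18.7. *Psmb8* at 3.14 ± 1.52 and *Tap2* at 2.34 ± 0.331 overlapped, *Tap1* followed at 0.899 ± 0.144, and *Nlrc5* and *Psmb9*, at 0.257 ± 0.0698 and 0.181 ± 0.0670, overlapped at the bottom. In Pdk4SMKO cells *B2m* was still first at 368 ± 34.4, but *Tapbp* at 58.6 ± 2.14 passed *H2-K1* at 15.3 ± 3.73 CPM per kb. The D-B row, not counted among the members, was at 168 ± 16.0 in Pdk4fl/fl and 21.8 ± 4.12 in Pdk4SMKO cells. Its mean was above that of *H2-K1* in both genotypes. Among all tested genes per kb, *B2m* lay at the 99.9 percentile in Pdk4fl/fl and at the 99.4 to 99.5 percentiles in Pdk4SMKO libraries, while *H2-K1* went from the 96.0 percentile in Pdk4fl/fl replicate 1 to the 82.0, 74.7 and 72.4 percentiles in Pdk4SMKO libraries.

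The pattern of each member over the 6 libraries was set beside that of the other members and of all protein-coding genes with a mean of at least 10 CPM, by the mean absolute difference of centred log2 CPM. The closest members were *Psmb8* and *Psmb10* (0.18), *H2-K1* and *B2m* (0.20) and *Tap1* and *Tap2* (0.27). Genes outside the pathway came closer still. For *H2-K1* they were *Tmem97*, *Ddx39* and *Snx16* (0.078 to 0.094), and for *B2m* *Tma16*, *Xpo1* and *Pfdn4* (0.070 to 0.086). *Tap1* was nearest to *Coil*, *Creld2* and *A430105I19Rik*, *Tap2* to *B4galt1*, *Anxa11* and *Hif1a*, and *Tapbp* to *Gphn*, *Taok3* and *Rsrp1*. The nearest of *Psmb8* included the ribosomal protein genes *Rplp2* and *Rps15a*, after *Gm10073*, and those of *Psmb10* were *Naca*, *Psenen* and *Dnajc17*. *Nlrc5* was nearest to *Ptgs2*, *Kif20b* and *Tinagl1*, and *Psmb9* to *Mtrr*, *Ints2* and *Chmp4c*, all at larger distances (0.13 to 0.19). With 14085 genes and 6 libraries that fall into 2 groups, these distances are a description alone.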

How the data were processed

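RNA from 6 cultures of Ang II-treated MASMCs, 3 per genotype, was sequenced as paired-end reads. The deposited values are raw counts per gene, not normalized by the authors. The aligner, the counting program and the use of strand are not given in the sources used here. The submitters' processing notes name GRCm39, whereas the identifiers and coordinates are those of an Ensembl annotation of C57BL/6NJ, with 625 unnamed additional rows. Counts were filtered (filterByExpr), normalized by TMM and tested on genotype with the quasi-likelihood test of edgeR 4.0.16 in R 4.3.3. Benjamini-Hochberg adjustment covered 14085 genes. The fit was also run on simulated counts in which far fewer genes changed, so that run does not test the scaling used here. DESeq2 1.42.0 served as an alternative. Ratios within libraries (0.5 added to each count) were compared by exact permutation over 8 gene pairs. Named genes were all members, *Pdk4*, *Psmb6*, *Psmb7*, *Ciita*, *Irf1*, *Rfx5* and *Calr*, the 2 most negative and 2 most positive calls of each list, and the 3 genes nearest to each member, of which some are not reported here. Motifs were sought in the 250 bases before each start. Members and lists were chosen with earlier results of these data known. Floors of 3 counts cover counting error alone.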

Additional observations from a re-analysis of the deposited data

How the results depend on the processing

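The 2 members called higher and 5 called lower were recounted under other scalings, DESeq2, other filters and thresholds, a replicate block and without each library. The number called higher was 2 except with library size alone, where it was 3. The number called lower was 4 with library size alone, with at least 10 counts in every library and without Pdk4fl/fl replicate 2, and 6 with an adjusted p under 0.05 alone or a fold change of at least 1.5. The filter of at least 10 counts in every library removed *Nlrc5* and *Psmb9*, so neither was tested there. Library size alone moved the median log2 fold change of all tested genes from 0.12 to 0.72, and gave 6184 higher and 2390 lower genes in place of 4616 and 3733. It ended the call of *Nlrc5* (−0.85) and called *Psmb9* (1.17). No log2 fold change of a member changed sign under the alternatives run. Leaving out each library in turn, the log2 fold change was −3.37 to −3.03 for *H2-K1*, −3.33 to −3.004 for *B2m* and −1.94 to −1.20 for *Nlrc5*, and that of *H2-K1* and the D-B row summed was −3.29 to −2.98. The log2 ratio of *H2-K1* to *B2m* changed sign among these (−0.14 to 0.18), as did that of *Tap1* to *Tap2* (−0.034 to 0.37). The D-B row and the sum over all class I rows were added after the data were seen. The labels share replicate numbers between genotypes. Deviations of same-numbered libraries correlated at 0.033, 0.039 and 0.125, so the numbers were not taken as pairs, and with the replicate block 2 members were higher and 5 lower. *Nlrc5* and *Psmb9*, at 6 to 46 counts per library, are the members that depth limits most.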
